A study of Mus musculus with 80 samples.

Results

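The genes described here are the 92 autosomal protein-coding mouse genes whose symbols begin with Kcn, out of 20665 autosomal protein-coding genes in the mm10 annotation. Nearly all of them encode the pore-forming subunits of potassium channels or the proteins that assemble with them. Membership went by symbol and position alone, though the family was chosen with earlier results of these data known. A further 2 Kcn genes lie on the X chromosome and are not members. By symbol they fall into 9 calcium-activated genes (Kcnm and Kcnn), 15 inward-rectifier genes (Kcnj), 14 two-pore genes (Kcnk), 39 voltage-gated genes, 12 genes of accessory subunits (Kcnab, Kcne, Kcnip and Kcnrg) and 3 others (Kcnt and Kcnu).

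The histone mark H3K27me3 was mapped by CUT&RUN (antibody-guided nuclease cleavage of chromatin) in fibroblasts purified from the uterus of female mice. In the tested animals floxed Kdm6b, which encodes an enzyme that removes this mark, was deleted by Cre driven either from the progesterone receptor gene (Pgr-Cre) or from the gene of the fibroblast receptor Pdgfra (Pdgfra-Cre). These conditional knockouts (cKO) were set against Kdm6b f/f controls, which carry the floxed alleles too. All of these females were mated with B6 males. For Pgr-Cre, both genotypes were sampled from inter-implantation tissue (IIS) at GD5.5, at GD8.5 and at GD14.5 of gestation. Implantation sites (IS, with myometrium and endometrium) were taken at GD14.5 and at GD18.5. The Pdgfra-Cre cKO fibroblasts and their own controls came from GD14.5 IS. A separate set of B6CBAF1/J females, in which Kdm6b was not deleted, gave fibroblasts from IIS at GD5.5 after natural mating, from the uterus at GD5.5 after mating with vasectomized males, from the uterus of non-pregnant females given progesterone for 3 days, and from the uterus at GD0.5. Ages were not given in the sources used here. The 2 sets were kept apart.

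Potassium channels set the resting voltage of a cell and bring it back after excitation. In the uterus the large-conductance calcium-activated channel (BK, encoded by Kcnma1), the small-conductance channel SK3 (Kcnn3) and the inward rectifier Kir7.1 (Kcnj13) are known for holding smooth muscle quiet during pregnancy. Voltage-gated channels open on depolarization, inward rectifiers pass current near rest, and two-pore channels carry a leak current that stretch, acid or lipids can alter. H3K27me3 is deposited by Polycomb complexes, marks genes that are kept silent, and tends to form wide domains around CpG-rich starts.

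Each group of 3 samples was represented by 1 list of broad peaks made from the pooled samples, so 16 lists stood for 48 samples and no list had replicate values. The value of a gene is its coverage, the percent of its span, extended by 2 kb at each end, inside peaks. The lists are lenient: in the 12 lists of the Kdm6b set the lowest -log10 p of a peak was 0.340 to 0.349 and the median fold over background was 1.12 to 1.15. Covered length was 685 to 740 Mb in cKO lists and 609 to 731 Mb in control lists, with the longer list on the cKO side in 5 of 6 pairs. Read depth was not given in the sources used here. Of 7 fibroblast genes, 6 (Col1a1, Col1a2, Col3a1, Dcn, Lum and Vim) had no peak in any of the 12 lists, while the mean of 5 epithelial genes was 88.4 to 94.8% in cKO lists and 84.0 to 92.8% in control lists. The remaining fibroblast gene, Pdgfra, averaged 23.4% in cKO and 22.9% in control. Among the epithelial genes Cdh1 rose, with 87.8% in cKO and 77.3% in control (limma adjusted p = 0.00415). The mean of 4 endothelial genes was 13.1 to 25.2% in cKO lists and 8.13 to 14.9% in control lists. Of these, only Tek, an endothelial receptor gene, rose (limma adjusted p = 0.0161). The mean of 6 smooth-muscle genes was 24.0 to 35.6% in cKO lists and 27.7 to 35.6% in control lists. Of these, Tagln and Des had no peak in any of the 12 lists, while Actg2 averaged 89.97% in cKO and 96.8% in control. Cnn1 averaged 48.7% and 52.1%, Acta2 35.98% and 40.2%, and Myh11 0.448% and 0.923%, in the same order. The mean of 4 immune genes was 37.6 to 42.8% in cKO lists and 38.5 to 45.2% in control lists. For 4 trophoblast genes it was 71.4 to 75.4% in cKO lists and 70.1 to 75% in control lists. None of the tested smooth-muscle, immune or trophoblast genes rose or fell. The part of cell make-up and covered length in the gene results was not tested. More marked cells and more mark per cell cannot be told apart in these pools. Kdm6b itself lay at 0.932 to 7.10% in cKO lists and 0 to 6.75% in control lists, which says nothing of the deletion.

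Coverage divided the family into genes that lay wholly inside peaks, genes without any peak, and a large middle group. Kcna3 and Kcna7, which encode the voltage-gated channels Kv1.3 and Kv1.7, Kcns2, a silent subunit that modifies other voltage-gated channels, Kcnj11, the pore of the ATP-sensitive channel, and Kcnk15, a two-pore gene, were at 100% in all 16 lists. Kcnj13, Kcnk5 and Kcnk7 (two-pore), Kcnv2 (a silent voltage-gated subunit) and Kcnrg were at 0 in all 16. The wholly covered genes were short, with a median length of 5.13 kb, against 34.5 kb for all 92 members. Of the members, 8.70% were covered to at least 90% in all 12 Kdm6b lists, against 3.76% of all autosomal genes, and 5.43% were at 0 in all 12, against 33.2% of all autosomal genes. Mean coverage was 50.3% in cKO lists and 48.8% in control lists for the 92 members, and 22.6% and 22.7% for all autosomal genes. These are descriptions of levels, with no test.

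**Figure D1:**
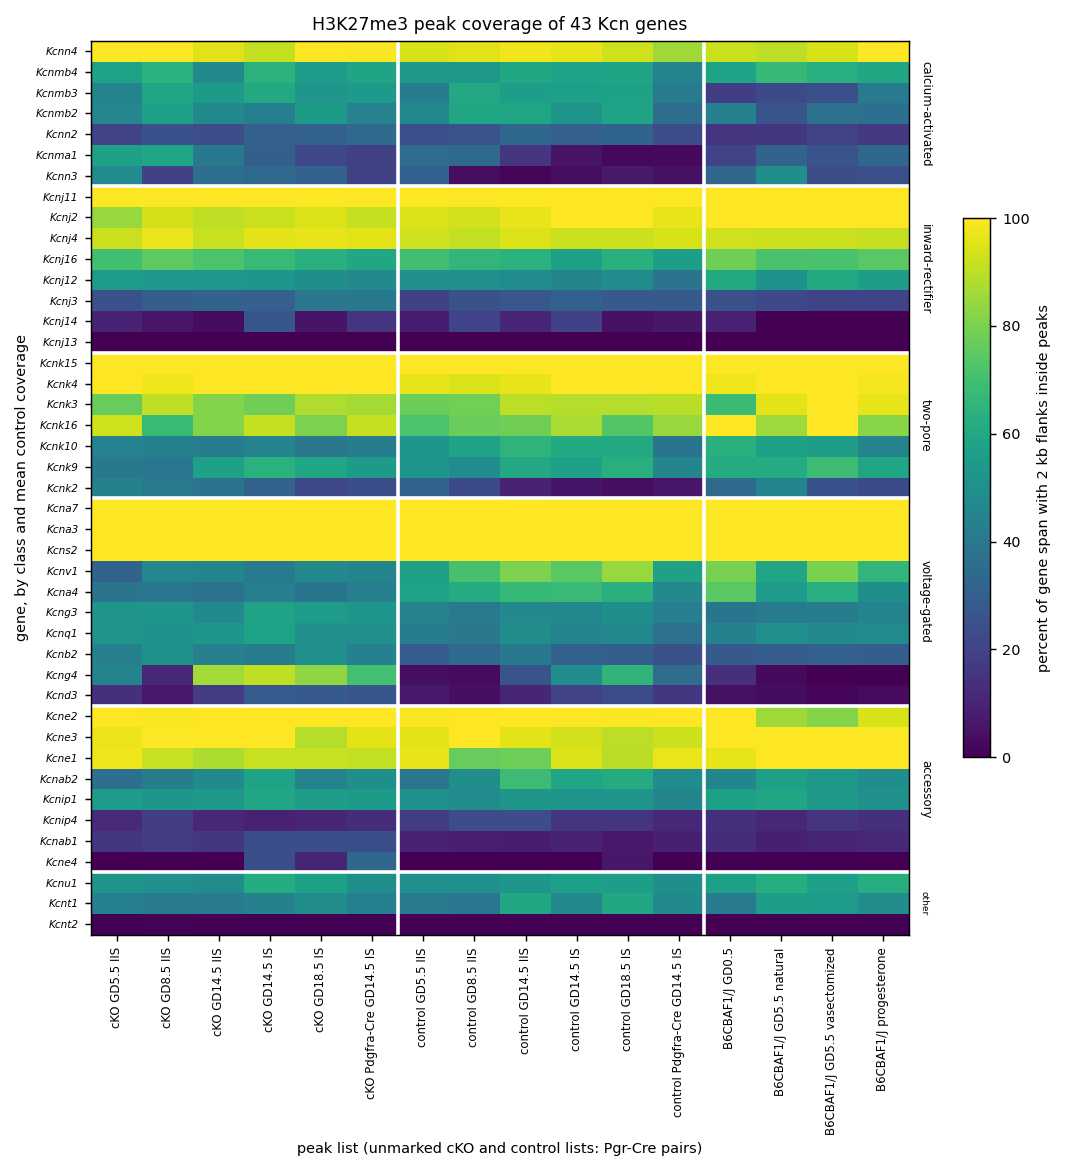
Percent of each gene span with 2 kb flanks inside H3K27me3 peaks, for the 43 Kcn genes that the naming rule takes (rows, by class and mean control coverage) in 6 cKO lists, 6 control lists and 4 B6CBAF1/J lists (columns). Rows such as Kcna3 and Kcnj11 are at 100 in every list, Kcnj13 is at 0 in every list, and Kcnma1 and Kcnn3 are brighter in the cKO columns than in the control columns.

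A transcription start was annotated for 68 of the 92 members. The window of 2 kb either side of the start lay wholly inside peaks in all 12 lists for 33 of them (48.5%, against 9.69% of 16457 autosomal genes with a start) and had no peak in any of the 12 lists for 6 (8.82%, against 41.4%). At the start itself 80.6% ± 2.16 of the 68 members were inside a peak in cKO lists and 77.5% ± 2.89 in control lists (SD, n = 6 lists each). At 20 kb upstream the values were 40.7% ± 7.12 and 37.7% ± 6.62, so peaks over these genes centred near their starts in both genotypes.

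**Figure D2:**
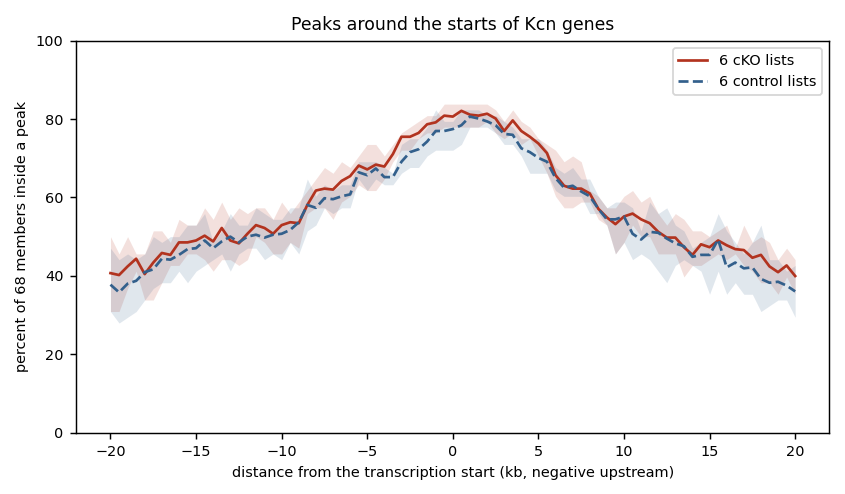
Percent of 68 members inside a peak against distance from the transcription start in kb, as the mean (line) and range (band) over 6 cKO and 6 control lists. Both curves peak near the start, at 80.6% in cKO and 77.5% in control lists, and the bands overlap over nearly the whole window.

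The bases just upstream of the start are printed for 5 members because they show the range of promoter composition beside the coverage, from a start that was always inside peaks to starts that never were. Each run holds the 150 bases before the RefSeq start of mm10 (GRCm38.p6), 5′ to 3′ on the strand of the gene, and capitals mark every CG dinucleotide.
Kcna3: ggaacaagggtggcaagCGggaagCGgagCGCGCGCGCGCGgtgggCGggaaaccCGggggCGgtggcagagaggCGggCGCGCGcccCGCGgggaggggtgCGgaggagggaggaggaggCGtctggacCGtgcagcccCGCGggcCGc
Kcna4: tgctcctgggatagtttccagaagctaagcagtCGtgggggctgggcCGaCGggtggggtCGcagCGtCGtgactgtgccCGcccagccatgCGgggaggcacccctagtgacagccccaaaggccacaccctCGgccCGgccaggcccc
Kcnn3: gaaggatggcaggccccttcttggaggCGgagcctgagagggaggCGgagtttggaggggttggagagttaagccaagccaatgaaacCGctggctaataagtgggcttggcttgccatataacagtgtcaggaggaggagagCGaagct
Kcnk5: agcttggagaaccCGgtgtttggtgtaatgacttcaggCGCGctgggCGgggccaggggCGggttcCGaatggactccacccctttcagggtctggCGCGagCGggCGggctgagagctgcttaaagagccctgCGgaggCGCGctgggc
Kcnj13: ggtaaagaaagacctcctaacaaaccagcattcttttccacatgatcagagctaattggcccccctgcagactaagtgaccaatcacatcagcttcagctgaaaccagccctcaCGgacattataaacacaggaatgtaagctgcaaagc

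The Kcna3 run lies at chr3:107036012-107036161 on the plus strand and holds 23 CG. It belongs to a gene whose start window was at 100% in every cKO and control list. The Kcna4 run, at chr2:107290439-107290588 on the plus strand, holds 10 CG, and its start window was at 100% too. The Kcnn3 run, at chr3:89520014-89520163 on the plus strand, holds 4 CG, and its start window averaged 63.6% in cKO lists and 28.98% in control lists. The 2 starts that never touched a peak differed from each other. The Kcnk5 run, at chr14:20181783-20181932 on the minus strand, holds 13 CG, and the Kcnj13 run, at chr1:87394730-87394879 on the minus strand, holds 1.

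Over the full 250 bases before the start, CG was counted on 1 strand, since it reads the same on both. Kcna3 had 31, a number reached by 6.27% of the 17274 genes with a start, Kcnk5 had 19 (25.9%), Kcna4 had 14 (39.9%), Kcnn3 had 10 (51.0%) and Kcnj13 had 3 (76.9%). The median was 14 in the 33 members with a start window wholly inside peaks, 9.5 in the 6 without a peak, 6 in the 29 between, and 10 in all genes. The ranges overlapped, 1 to 43, 1 to 19 and 0 to 31, so CG content did not separate the 3 kinds of start.

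The main comparison asked which channel genes lay more or less inside the mark after loss of the demethylase. Of the 92 members, 81 had a mean coverage of at least 5% and entered a limma test of the 6 differences between paired lists, adjusted by Benjamini-Hochberg over all 10205 genes tested. Of the 81, 11 rose (13.6%, where 7.99% of all genes tested rose), 3 fell (3.70%, where 6.45% of all genes tested fell) and 67 did not pass. All genes tested include those of the X chromosome, where no member lies. Of the 9384 tested genes that are autosomal, 814 rose and 489 fell. The 11 that rose were Kcnma1 and Kcnn3 among the calcium-activated genes, Kcnj12 among the inward rectifiers, Kcnk2 among the two-pore genes, Kcnb2, Kcnd3, Kcng3, Kcng4 and Kcnq1 among the voltage-gated genes, and Kcnab1 and Kcnip1 among the accessory genes. The 3 that fell were Kcnv1 and Kcna4, both voltage-gated, and Kcnj2, an inward rectifier. All 11 that rose were higher in 6 of 6 pairs, and 2 of the 3 that fell were lower in 6 of 6. The median difference was 1.59 points over the 81 tested members, 0 over all genes tested and 0.248 over the autosomal ones among them. With all lists brought to the same covered length, 3 of the 11 (Kcnma1, Kcnk2 and Kcnab1) and 1 of the 3 (Kcna4) still passed, and 10 of the 11 kept their sign. At that length Kcnip4, Kcnj16 and Kcnq3 passed as lower in cKO, which they had not done before. Kcnq3, a voltage-gated gene named here with its values known, had 44.1% in cKO and 52.6% in control (-8.44 points, adjusted p = 0.0524), and -9.78 points at equal covered length (adjusted p = 0.0256). Within 2 kb of the start none of the 9 risen genes with an annotated start passed.

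**Figure D3:**
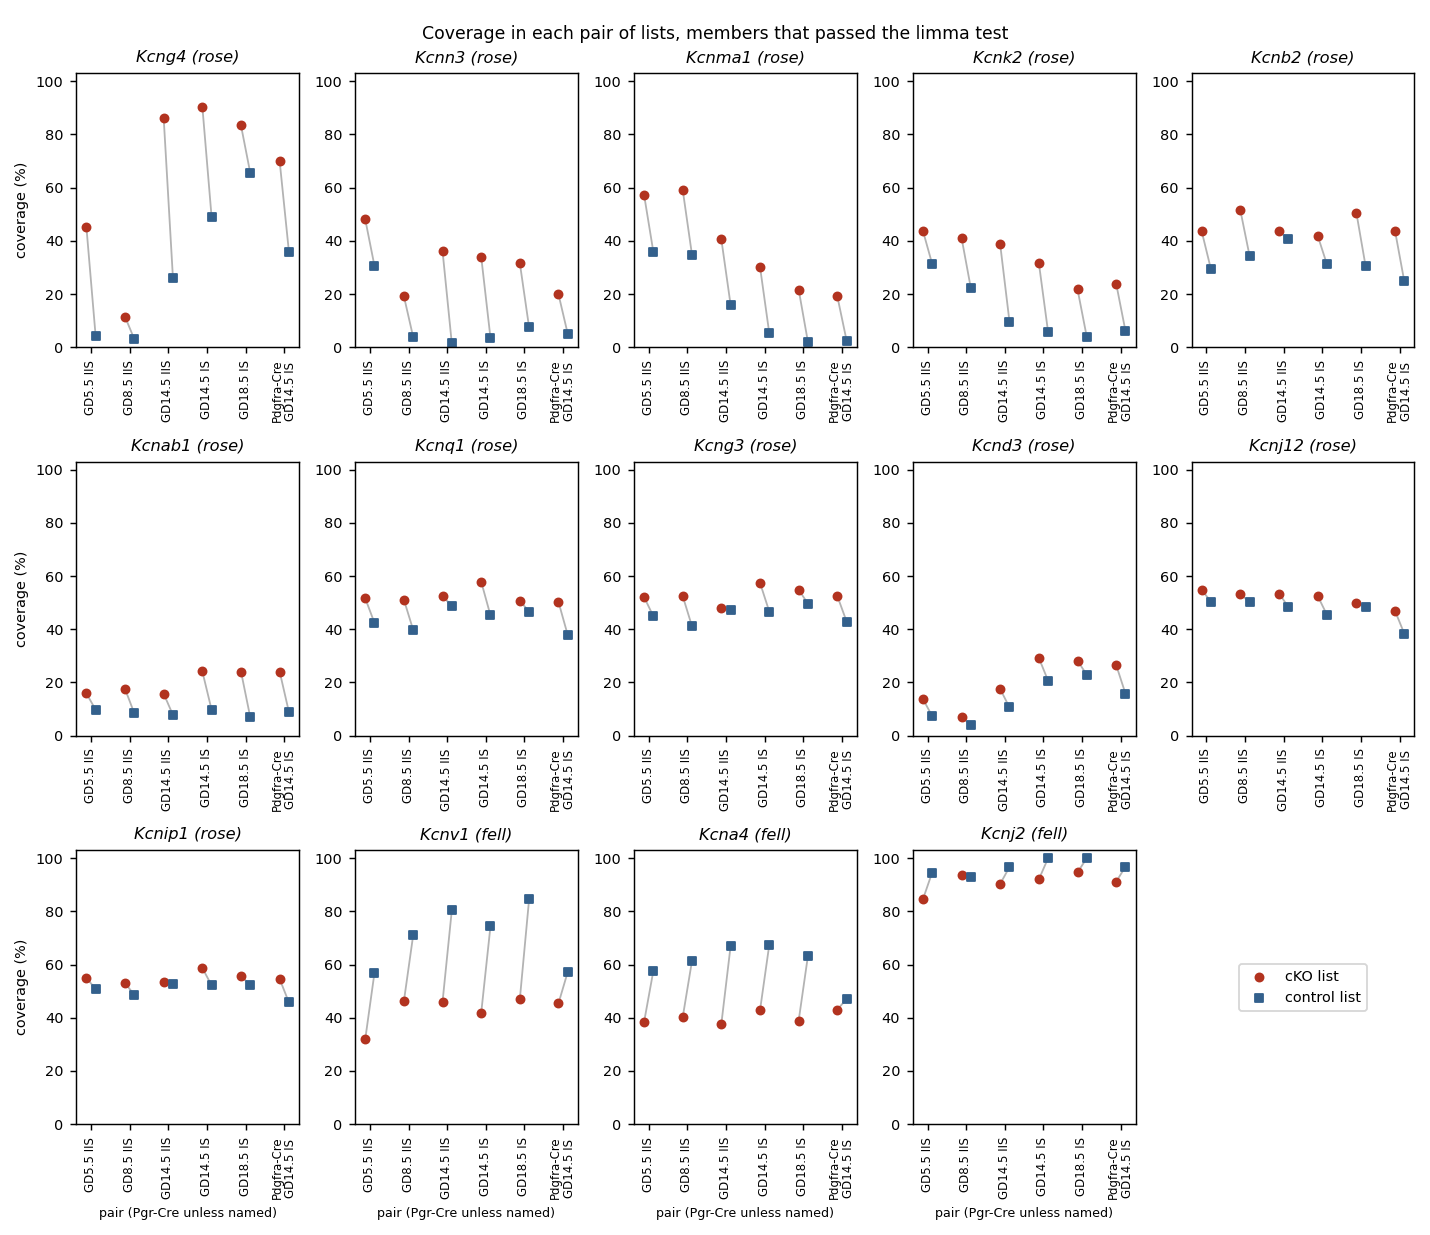
Coverage in percent (vertical axis, 0 to 100) in each of the 6 pairs of lists (horizontal axis) for the 14 members that passed the limma test, with circles for cKO, squares for control and a line joining each pair. For Kcnma1, Kcnn3 and Kcnk2 the circle stands above the square in every pair, while for Kcna4 and Kcnv1 it stands below.

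Among the calcium-activated genes the pore genes of the BK and SK3 channels rose, and none of the 9 fell. Kcnma1 (chromosome 14, 23292288 to 24005110), the BK pore, had 57.3, 59.2 and 40.5% coverage in cKO IIS at GD5.5, GD8.5 and GD14.5, with 30.2 and 21.7% in cKO IS at GD14.5 and GD18.5. Control lists of the same days and sites had 35.9, 34.8, 15.9, 5.24 and 1.96%. The Pdgfra-Cre pair had 19.1% in cKO and 2.51% in control. The cKO list was thus the higher one in every pair, and within each genotype the later and implantation-site lists were the lower ones. The means were 38.005% ± 17.4 in cKO and 16.0% ± 15.8 in control, and the difference was 22.0 ± 3.35 points (SD, 6 pairs, limma adjusted p = 0.00300). The gap varied little, between 16.6 and 24.97 points, while the levels of both genotypes differed widely between days and sites. An unpaired fit, which sets the gap against the spread between days, did not pass (adjusted p = 0.138), and neither did peaks with a -log10 p of at least 1 (6.02 points, adjusted p = 0.110) or the start window (adjusted p = 0.398).

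Kcnn3 (chromosome 3, 89520164 to 89672494), the SK3 pore, had 48.1, 19.2 and 36.2% coverage in cKO IIS at GD5.5, GD8.5 and GD14.5, with 34.1 and 31.6% in cKO IS at GD14.5 and GD18.5. Control lists had 30.6, 3.88, 1.48, 3.59 and 7.42% in the same order, and the Pdgfra-Cre pair had 19.9% in cKO and 4.99% in control. After GD5.5 the control lists were all under 8% and the cKO lists all above 19%, and the overlap between genotypes came from the GD5.5 control list alone. The difference was 22.9 ± 8.35 points (6 pairs, adjusted p = 0.0126). It was 5.91 at equal covered length (adjusted p = 0.0682), and peaks with a -log10 p of at least 1 left too little coverage to test.

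The other 7 calcium-activated genes did not pass. Kcnmb1, the smooth-muscle beta subunit of BK, averaged 44.6% ± 6.97 in cKO and 31.1% ± 7.95 in control and was higher in 6 of 6 pairs, with a difference of 13.5 ± 11.4 points (adjusted p = 0.0902). Its span with flanks lies wholly inside that of Kcnip1 on chromosome 11. All bases of its coverage are thus also counted for Kcnip1. Kcnn4, the intermediate-conductance channel, was at 97.7% in cKO and 93.7% in control. Kcnmb4 (57.8% and 54.8%), Kcnmb3 (54.2% and 52.2%) and Kcnn1 (28.9% and 25.9%) had differences of 2.96, 1.97 and 2.97 points. Kcnn2, the SK2 pore, and Kcnmb2, a further BK beta subunit, had differences of -0.74 and -2.75 points, with 27.7% and 48.9% in cKO and 28.4% and 51.7% in control. In this class the largest differences were those of Kcnn3, Kcnma1 and Kcnmb1. At equal covered length these were 5.91, 14.0 and 15.5 points (limma adjusted p = 0.0682, 0.0159 and 0.303).

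Of 11 tested two-pore genes, 1 rose, 0 fell and 10 did not pass. The one that rose was Kcnk2 (chromosome 1, 189207930 to 189402782), which encodes the stretch-gated leak channel TREK-1. It had 43.8, 41.1 and 38.6% coverage in cKO IIS at GD5.5, GD8.5 and GD14.5, with 31.7 and 21.8% in cKO IS at GD14.5 and GD18.5. The matching control lists had 31.3, 22.3, 9.63, 5.64 and 3.89%, and the Pdgfra-Cre pair had 23.9% in cKO and 6.18% in control. As for Kcnma1, the values of both genotypes were lowest in the late and implantation-site lists, and the cKO list was the higher one in every pair. The difference was 20.3 ± 6.06 points (6 pairs, adjusted p = 0.00793), 14.7 at equal covered length (adjusted p = 0.0406) and 33.5 in the start window (adjusted p = 0.270).

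Kcnk10, which encodes the related channel TREK-2, went the other way without passing, at 42.7% ± 1.86 in cKO and 56.1% ± 9.40 in control (-13.3 ± 9.68 points, adjusted p = 0.0638). Its cKO lists lay within 39.7 to 44.7%, and its control lists ran between 38.9% in the Pdgfra-Cre pair and 65.1% at GD14.5 IIS. Kcnk16, a pancreatic two-pore gene, averaged 84.0% in cKO and 78.8% in control, and Kcnk9, the acid-sensitive TASK-3, 52.3% and 54.5%. Kcnk4, the TRAAK channel, was near the ceiling at 99.7% and 98.0%, and Kcnk3, the TASK-1 channel, was at 83.6% and 85.6%. These 4 did not pass.

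Among 36 tested voltage-gated genes 5 rose, 2 fell and 29 did not pass. The largest rise in points was that of Kcng4 (chromosome 8, 119623854 to 119635680), a silent subunit that forms channels only with partners of the Kcnb family. Its cKO lists had 45.3, 11.4, 86.1, 90.5 and 83.4% in the order of days and sites given above, its control lists had 4.11, 3.06, 25.9, 48.8 and 65.5%, and the Pdgfra-Cre pair had 69.9% in cKO and 35.8% in control. Unlike Kcnma1, Kcng4 had its higher values in the later lists of both genotypes. The difference was 33.9 ± 18.51 points (adjusted p = 0.0329), and at equal covered length it was 35.1 points with adjusted p = 0.108.

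Kcnb2, the delayed rectifier Kv2.2, averaged 45.8% ± 4.08 in cKO and 31.7% ± 5.29 in control (14.1 ± 6.34 points, adjusted p = 0.0215). Kcnq1, whose locus also gives rise to an imprinted antisense transcript, averaged 52.4% ± 2.83 and 43.5% ± 4.22 (8.90 ± 4.13 points, adjusted p = 0.0247). For these genes the lowest cKO list stood above the highest control list, 41.9 against 40.6% for Kcnb2 and 50.3 against 48.9% for Kcnq1. Kcng3, another silent subunit, rose by 7.51 ± 4.00 points (adjusted p = 0.0343), and Kcnd3, the transient-current channel Kv4.3, by 6.79 ± 2.72 points (adjusted p = 0.0196). Kcnd3 had 6.98 to 29.2% in cKO lists and 4.13 to 22.9% in control lists, with the highest values of both genotypes in IS. None of these 4 passed once the lists were of equal length, with 9.71 points for Kcnb2, 2.96 for Kcnq1, 1.44 for Kcng3 and 4.31 for Kcnd3.

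Kcnv1 and Kcna4 had less of their span inside peaks in cKO. Kcnv1 (chromosome 15, 45096086 to 45115912), a silent subunit that damps Kv2 and Kv3 currents, had 31.9 to 46.98% in the 6 cKO lists and 56.9 to 84.6% in the 6 control lists, without overlap. The difference was -27.7 ± 9.32 points (adjusted p = 0.0103), and at equal covered length -20.4 (adjusted p = 0.0691). Kcna4 (chromosome 2, 107290589 to 107326804), the fast-inactivating channel Kv1.4, had 37.7 to 43.1% in cKO lists and 47.1 to 67.5% in control lists, again without overlap. Its difference was -20.5 ± 8.77 points (adjusted p = 0.0186), and it passed at equal covered length (-22.8, adjusted p = 0.00882).

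Counted over the 81 tested members, all 6 cKO lists stood above all 6 control lists for 4 (Kcnab1, Kcnb2, Kcnip1 and Kcnq1), where this held for 3.81% of all genes tested. All 6 stood below for 2 (Kcna4 and Kcnv1), where this held for 3.08% of all genes tested. Kcnma1, Kcnn3 and Kcnk2 are not among them, because their levels also differed between days and sites within a genotype.

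Of 14 tested inward-rectifier genes 1 rose, 1 fell and 12 did not pass. Both that passed encode channels of the Kir2 family, which carry the classical strong inward rectification, and both moved little. Kcnj12 (Kir2.2) had 46.96 to 54.7% in cKO lists and 38.4 to 50.4% in control lists, a difference of 4.95 ± 2.58 points (adjusted p = 0.0370) that became -0.10 at equal covered length. Kcnj2 (Kir2.1) averaged 91.0% ± 3.57 in cKO and 96.8% ± 2.80 in control (difference -5.81 ± 3.56 points, adjusted p = 0.0485), and it was 0.491 points higher in cKO at GD8.5. Kcnj3, a subunit of G-protein-gated channels, had a difference of 6.45 ± 4.78 points (adjusted p = 0.0710). Kcnj16 (Kir5.1), the neighbour of Kcnj2 at 38.2 kb, was higher in 6 of 6 pairs with 5.47 ± 4.51 points (adjusted p = 0.0920). At equal covered length Kcnj16 turned and passed as lower in cKO (-14.9 points, adjusted p = 0.0285), so no direction can be given for it. Kcnj14 had 11.1% in cKO and 11.7% in control, and Kcnj4 had 94.8% and 92.8%. Kcnj13, the Kir7.1 gene, had no peak over its span in any list.

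Of 9 tested accessory genes 2 rose and 0 fell. Kcnab1 (chromosome 3, 64949212 to 65378225), the Kv beta 1 subunit that speeds inactivation of Kv1 channels, had 15.9, 17.6 and 15.8% in cKO IIS at GD5.5, GD8.5 and GD14.5, with 24.2 and 24.1% in cKO IS at GD14.5 and GD18.5. Control lists had 9.76, 8.41, 7.76, 9.71 and 6.90%, and the Pdgfra-Cre pair had 24.1% in cKO and 8.88% in control. All control lists stayed under 10%, and the cKO lists from IS were above those from IIS. The difference was 11.7 ± 4.50 points (adjusted p = 0.0156) and passed at equal covered length (5.73 points, adjusted p = 0.0264). Kcnip1, a calcium-binding partner of Kv4 channels, rose by 4.71 ± 2.78 points (adjusted p = 0.0479), and this call was lost at equal covered length (0.471 points).

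Kcnab2, the Kv beta 2 subunit, was the accessory gene with the largest negative difference, at 46.4% in cKO and 54.4% in control (-7.97 ± 8.95 points, adjusted p = 0.173). Kcnip4 followed with -5.10 ± 4.51 points (adjusted p = 0.109), and at equal covered length it passed as lower in cKO (-3.98, adjusted p = 0.0360). Kcne4, a single-span subunit, was at 0 in all 3 IIS lists of each genotype. In IS it had 23.9, 10.2 and 33.8% in the cKO lists of GD14.5, GD18.5 and the Pdgfra-Cre pair, against 0, 6.54 and 0% in control (10.2 ± 14.8 points over 6 pairs, adjusted p = 0.275). Kcne1, Kcne2 and Kcne3, the partners of Kcnq1 and other voltage-gated channels, were at 91.7, 99.9 and 97.0% in cKO and 88.7, 99.7 and 94.6% in control. Among the remaining genes, Kcnt1, a sodium-activated channel, had 43.4% in cKO and 49.3% in control, Kcnu1, the sperm channel Slo3, 53.2% and 52.6%, and Kcnt2 0.233% and 0%. None of these passed or, for Kcnt2, could be tested.

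Where the coverage differed along the gene was examined by cutting each span into 5 equal parts from the 5′ end. In Kcnma1 all 5 parts were higher in cKO in 6 of 6 pairs, by 18.0, 13.8, 25.8, 21.2 and 31.5 points. The last part had 35.4% in cKO and 3.92% in control. In Kcnn3 the second part differed most (42.8% in cKO and 8.14% in control) and the first least (21.3% and 13.8%). In Kcnk2 the first part differed most (64.8% in cKO and 18.0% in control) and the fourth least (5.21% and 1.02%). In Kcna4 the first part stayed near the ceiling (90.7% in cKO and 98.6% in control), and the third differed most, at 12.6% and 48.7%. The domain over the start of Kcna4 was thus present in both genotypes, and the difference lay downstream of it. These parts belong to genes already called and are given without a test.

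**Figure D4:**
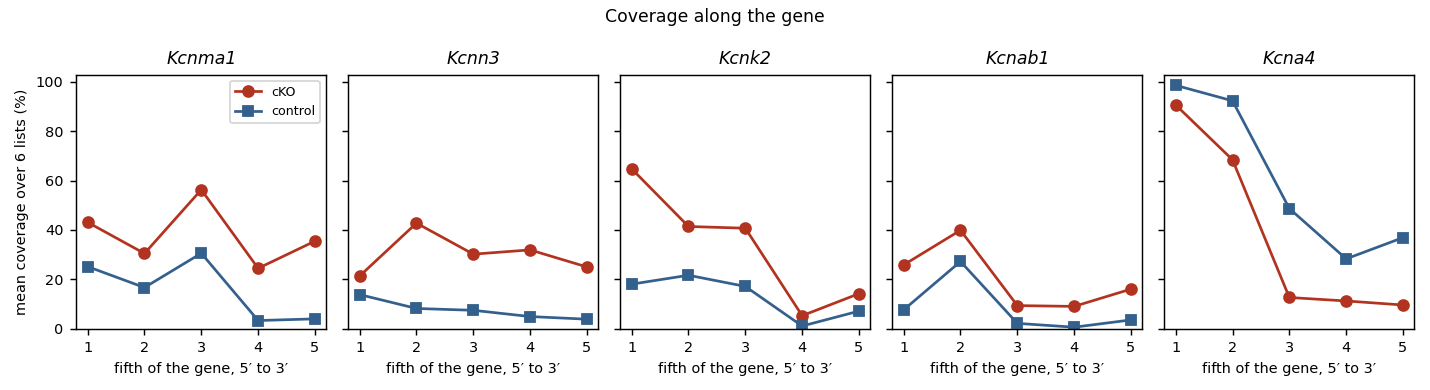
Mean coverage over 6 cKO lists (circles) and 6 control lists (squares) in each of 5 equal parts of the gene, from the 5′ to the 3′ end, for 4 members that rose and Kcna4, which fell. In Kcnma1 the last part has 35.4% in cKO and 3.92% in control, and in Kcna4 the first part is above 90% in both.

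Class by class, the calcium-activated genes had the largest mean difference in each of the 6 pairs among the 5 larger classes. Their mean was 47.7% in cKO and 40.3% in control, and the difference of 7.42 ± 2.83 points (SD over 6 pairs) was positive in 6 of 6. It was 5.18 to 6.86 points in the Pgr-Cre pairs and 13.1 in the Pdgfra-Cre pair, whose control list was the shortest of all. The median of its 9 members was 2.97 points, so the class mean rests largely on Kcnma1, Kcnn3 and Kcnmb1. The differences of the other classes were 1.73 ± 1.72 points for inward rectifiers, 1.05 ± 2.13 for two-pore genes, 0.417 ± 2.699 for voltage-gated genes and 2.04 ± 2.76 for accessory genes. All autosomal genes averaged -0.03 ± 1.49 points. In these 5 classes the Pdgfra-Cre pair had the highest difference, and in 4 of them GD14.5 IIS had the lowest (in voltage-gated genes GD18.5 IS did). The same pairs were the extremes of all autosomal genes (2.30 and -1.84 points) and of covered length (123 and -45.9 Mb). Differences between classes were not tested.

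**Figure D5:**
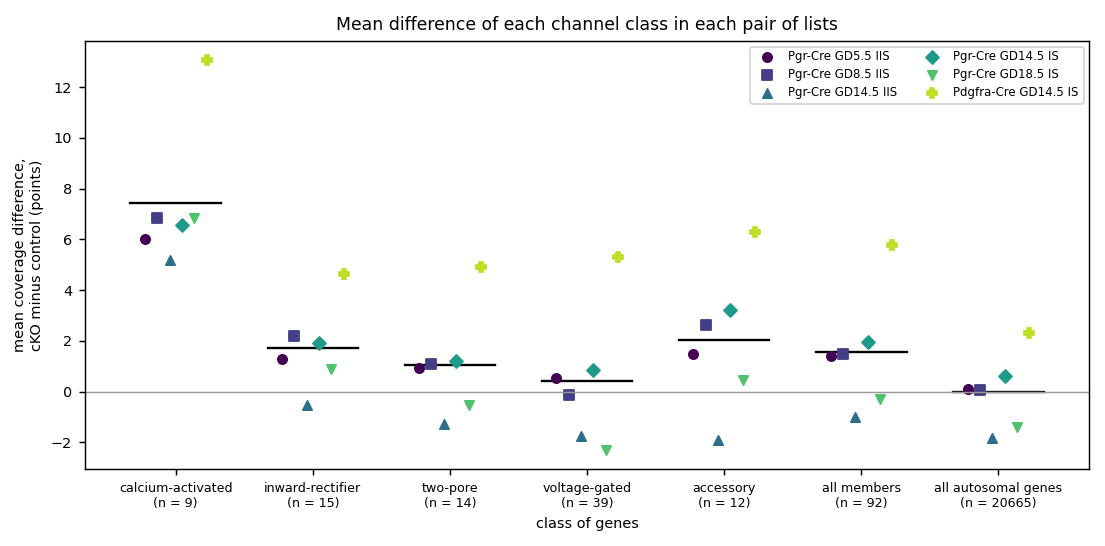
Mean coverage difference in points, cKO minus control, for the 5 larger classes of Kcn genes, all 92 members and all autosomal genes, with 1 symbol for each pair of lists and a bar at the mean of the 6 pairs. The calcium-activated class has positive values in all 6 pairs, 5.18 to 13.1, and the Pdgfra-Cre pair is the highest in each of these 5 classes.

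The strongest peaks, those whose -log10 q in the authors' lists reached 2, lay mostly at other members of the family. They touched 33 members in at least 1 of 16 lists (35.9%, against 12.9% of all autosomal genes). In any cKO list they touched 8 members (8.70%, against 3.78%), and in any control list 29 (31.5%, against 11.2%). By pair, 4 members were touched in cKO and 10 in control at GD5.5 IIS, 3 and 18 at GD8.5 IIS, 6 and 6 at GD14.5 IIS, 0 and 7 at GD14.5 IS, 1 and 4 at GD18.5 IS, and 6 and 29 in the Pdgfra-Cre pair. The cKO list thus had fewer such members in 5 of 6 pairs. The share of all autosomal genes touched was also lower in cKO in those pairs, with 1.58% against 9.75% in the Pdgfra-Cre pair and 2.70% against 3.85% at GD5.5 IIS, where the shares were closest. It was higher in cKO at GD14.5 IIS (2.64% against 2.00%). Kcna7 (Kv1.7) and Kcnk13, the two-pore channel THIK-1, had a strong peak in 4 and 5 of 6 cKO lists and in 6 of 6 control lists. Kcnh1, the ether-a-go-go channel, and Kcnmb4 had one in 1 and 2 cKO lists and in 6 control lists each. Kcnj9 and Kcnj10, which lie 11.9 kb apart, had one in 0 cKO lists and in 4 control lists. In each of those lists the same single peak touched both genes and was counted for each. The highest fold over background given by the authors at any member was 2.59, at Kcna7. Of the 11 members that rose, 3 (Kcnab1, Kcng3 and Kcnq1) had a strong peak in any of the 12 Kdm6b lists, all in controls. Kcnma1, Kcnn3, Kcnk2 and Kcng4 had none in any list, so their differences do not rest on such peaks.

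In the B6CBAF1/J set the lists after mating or progesterone were compared with a shared GD0.5 list, with 1 list per group and no test. The natural-mating list came from IIS and the others from the uterus, so mating and tissue site cannot be told apart in its comparisons. No member gained or lost at least 50 points between natural mating at GD5.5, vasectomized mating at GD5.5 or progesterone and GD0.5 (0.546, 0.546 and 1.06% of all genes did), nor between natural and vasectomized mating (0.194%). At 25 points 2 members had gained after natural mating and 2 after vasectomized mating, Kcnk3 in both cases among them (3.94 and 3.74% of all genes moved so far). Kcnk3 alone had gained after progesterone (5.24%), and 2, Kcna5 and Kcnn3, were higher after natural than after vasectomized mating (1.82%). Kcna5 lies outside the naming rule and is named here with its values known.

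Kcnk3 (TASK-1) had 96.1% after natural mating, 100% after vasectomized mating and 96.3% after progesterone, against 68.02% at GD0.5. The GD0.5 list was the lowest of the 4. Kcna5 (Kv1.5) had 100% after natural mating against 74.4% after vasectomized mating. Kcnn3 had 49.0% after natural mating, 23.9% after vasectomized mating, 24.5% after progesterone and 32.9% at GD0.5, and Kcnk2 had 45.3, 25.02, 22.5 and 34.5%, with natural mating the highest for both. Kcnma1 had 31.8, 26.1 and 33.8% in the 3 treated lists and 20.2% at GD0.5. Kcna4 had its highest value at GD0.5 (74.5%), against 54.8, 62.8 and 49.8% in the other lists. Kcnj13 stayed at 0 in all 4. The median of the 92 members was 56.7% after natural mating, 54.6% after vasectomized mating, 49.7% after progesterone and 55.9% at GD0.5.

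Genes that work with these channels were followed in the same fit. Of 47 such genes 35 were tested, 7 rose and 1 fell, beside 7.99 and 6.45% of all genes tested, and the median difference over the 47 was 0.497 points. Calcium channel genes held 3 of the rises. Cacnb4, an intracellular beta subunit, had 51.1% in cKO and 30.2% in control (20.9 ± 6.63 points, adjusted p = 0.00899), Cacna2d3 rose by 10.6 ± 5.91 points (adjusted p = 0.0360), and Cacna1h, the low-voltage-activated Cav3.2 pore, by 5.14 ± 2.98 points (adjusted p = 0.0445). Of the gamma subunits that shift BK opening to lower voltage, Lrrc52 rose by 17.7 ± 10.8 points (adjusted p = 0.0419), and Lrrc55 had 82.4% in cKO and 61.1% in control without passing (adjusted p = 0.0504). Lrrc26 (2.38 points) and Lrrc38 (-2.19 points) did not pass either. Abcc9, the sulfonylurea receptor of muscle ATP-sensitive channels, rose by 12.1 ± 7.46 points (adjusted p = 0.0445), while its pore gene Kcnj11 was at 100% throughout. Itpr2, a calcium release channel of internal stores, rose by 8.15 ± 4.94 points (adjusted p = 0.0443), and Best1, a calcium-activated chloride channel, by 4.07 ± 0.963 points (adjusted p = 0.0146). Scn1a, a sodium channel pore, fell by 10.6 points (adjusted p = 0.0276). None of the 4 tested HCN genes, which encode pacemaker channels, passed. Values of these partner genes at equal covered length are not given here.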

How the data were processed

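H3K27me3 CUT&RUN was made on purified uterine fibroblasts, per the labels' protocols. Per the labels and the submitters' processing notes, STAR 2.7.5c, samtools 1.10, Picard, bedtools 2.29.1 and bedGraphToBigWig 2.8 were used on mm10, and macs2 2.2.7.1 called the broad peaks. The deposited lists give each peak's fold (a ratio over background) and -log10 p and q, as the authors made them. Of 80 samples, 48 enter the 16 lists; the other 32, 20 of them inputs, are not analysed here. In both lists of Pgr-Cre GD14.5 IS the names of single peaks bear a version mark that the other lists lack; whether those peaks were called differently is not stated. One sample titled as an input carries an H3K27me3 antibody label and was placed with the inputs. No read depths were found in the labels or lists, so the precision of a single list is unknown.

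Peaks were merged, and coverage was computed for 21631 protein-coding genes of GRCm38.p6 (RefSeq) with 2 kb flanks. The test used limma 3.58.1 (R 4.3.3), for genes averaging at least 5% coverage, on 6 paired differences, taken as independent, with Benjamini-Hochberg adjusted p under 0.05. On simulated data it recovered 57% of shifts of 20 points and 85% of shifts of 40 points, and 4.05% of calls were false. The simulated differences were normal and independent between genes, which those of real coverage need not be. A gene that did not pass may thus still differ. Samples of 1 list may share technical spread, and p-values measure only the spread between pairs. Promoter sequences are those of RefSeq for 68 members. For genes with several starts the one nearest the 5′ end of the span was used.

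Members, classes, gene lists and tests were chosen with earlier results of these data known. Named genes are Kcnma1, Kcnn3, Kcnj13, every member that passed, the 2 highest and 2 lowest differences and the 3 highest control coverages of each class, and B6CBAF1/J changes of at least 50 points. Other genes given with values were chosen after their values were seen. Alternatives were equal covered length (487 Mb in the Kdm6b set and 544 Mb in the B6CBAF1/J set, peaks of lowest p first), -log10 p of at least 1, -log10 q of at least 2, 5 kb flanks, a window of 2 kb either side of the start, no filter, an unpaired fit, subtraction of the median difference, autosomes alone, a trend and robust prior, leaving out each pair, and 25 points. Python 3.11.15 with pandas 2.3.3 and numpy 2.4.6 was used. One result of the B6CBAF1/J set is not reported here.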

Additional observations from a re-analysis of the deposited data

Results flagged for a closer look

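In 1 of 47 sets of 6 paired differences examined, 1 value stood far from the others. This was the mean difference of the 9 calcium-activated genes, 13.1 points in the Pdgfra-Cre pair and 5.18 to 6.86 in the 5 Pgr-Cre pairs, and about 1 set in 20 would show such a gap by chance. In 4 members the Pdgfra-Cre pair went one way and all 5 Pgr-Cre pairs the other. Kcnab2 differed by 1.34 points in the Pdgfra-Cre pair and by a mean of -9.83 points in the Pgr-Cre pairs. Kcnip4 differed by 2.15 points against a mean of -6.55, and Kcnk10, the TREK-2 gene, by 3.23 against a mean of -16.6. Kcnmb2, a BK beta subunit, differed by 8.66 against a mean of -5.04. The differences between the Cre lines were not tested, since Pdgfra-Cre gives 1 pair, and its control list was the shortest of the set at 609 Mb, against 666 to 731 Mb in the other controls.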

How the results depend on the processing

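Of the 11 members that rose, 3 passed at equal covered length and 0 with peaks of a -log10 p of at least 1, with peaks of a -log10 q of at least 2 or in the start window. The other settings gave 8 to 11 risen members, among them 9 when genes with the same difference in all pairs were left out, a setting chosen after seeing the data. In the unpaired fit, which gave 8, Kcnma1, Kcnj12, Kcng4 and Kcnd3 did not pass (adjusted p = 0.138 to 0.371) and Kcnh5 did (0.0466). Fallen members, 3 in the main test, numbered 4 at equal covered length (Kcna4, Kcnip4, Kcnj16 and Kcnq3, without Kcnv1 and Kcnj2). With a -log10 p of at least 1, Kcnv1 (-11.2 points, limma adjusted p = 0.0317) and Kcnq3 (-9.09, adjusted p = 0.0411) passed as lower in cKO. The numbers were 0 with -log10 q of at least 2, 0 in the start window, 6 in the unpaired fit and 6 with the median difference subtracted. Leaving out 1 pair gave 4 to 8 risen (4 without Pgr-Cre GD5.5 IIS or GD14.5 IS) and 1 to 6 fallen (6 without Pdgfra-Cre, 1 without Pgr-Cre GD14.5 IS or GD18.5 IS), with 1 pair fewer to test. Kcnma1, Kcnn3, Kcnk2, Kcnab1 and Kcnv1 passed in all 6 of these fits. Kcnip1 turned to -4.47 points with a -log10 p of at least 1, and Kcnj12 to -0.10 and Kcnj16 to -14.9 at equal covered length.

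The mean difference of calcium-activated genes was 3.15 points with a -log10 p of at least 1 and -1.94 with a -log10 q of at least 2. Inward rectifiers came to -1.84 at equal covered length, -2.89 with -log10 p and -6.42 with -log10 q, and two-pore genes to -1.37, -3.39 and, in the start window, 4.53. With -log10 q voltage-gated genes came to -3.37 and accessory genes to -2.83. In the B6CBAF1/J set the count of members moved by at least 50 points, 0 in each comparison, became 1, 2 and 1 (natural, vasectomized and progesterone against GD0.5) with -log10 p, 2 in each of the 4 comparisons with -log10 q, 1, 1 and 2 in the start window, and 2, 2, 1 and 2 at 25 points. The cause of these changes was not tested. The test pairs pooled lists of the same day and site. By the replicate numbers of single samples, no paired analysis was possible because every peak list pools 3 samples. Depth is unknown and limits all weak peaks.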
